A study of Mus musculus with 6 samples.

Results

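The comparison set 2 arrays of BCR/ABL stem cells from imatinib-treated mice against 2 arrays of BCR/ABL stem cells from untreated mice, which are 4 of the 6 arrays of the series. The cells were mouse bone marrow cells transduced with BCR/ABL and sorted as GFP+ Lin- c-Kit+ Sca-1+, the gate for haematopoietic stem cells. The remaining 2 arrays held cells that carried the empty GFP vector, and they entered the fit only to help estimate the spread. The labels state neither the imatinib dose nor the treatment time, and nothing on the strain, the age or the number of mice behind an array. The p-values therefore measure the spread between these arrays, which may be technical.

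BCR/ABL is the fusion tyrosine kinase that drives chronic myeloid leukaemia. It stays active without a growth factor, and it signals through STAT5, through RAS and ERK, and through PI3K and AKT. AKT keeps the FoxO transcription factors out of the nucleus, and growth signals of this kind also feed MYC and the assembly of ribosomes. Imatinib occupies the ATP pocket of the ABL kinase and also inhibits the receptor kinases KIT and PDGFR. The question of the comparison was which genes and functions differed once the kinase was inhibited in the mouse.

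Genes were described where their signal was bright and their arrays separated. A gene was represented by the brightest of its probe sets that carry 1 gene symbol, and it was called bright where its mean over the 4 arrays lay above the median of all probe sets on the array. It was called separated where each imatinib array lay on the same side of each untreated array, so that all 4 array pairs had 1 direction. Of 18193 genes, 10862 were bright. Of the bright genes, 3225 (29.7%) were higher with imatinib in all 4 pairs and 3410 (31.4%) were lower, so 6635 (61.1%) were separated. On the level of probe sets, 5359 of 20273 bright probe sets (26.4%) were higher and 6493 (32%) were lower, 58.5% in either direction. These shares are the background against which each gene list below is read. The rule cut at a mean log2 level between 5.946 and 5.948, a signal of about 45.7, and separated genes included some whose nearest arrays were 0.0003 apart.

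A demanding form of the rule left far fewer genes. With every one of the 4 pairs apart by more than 2-fold, 99 bright genes (0.911%) were higher with imatinib and 112 (1.03%) were lower. The limma test on all 35877 probe sets called 0 at an adjusted p of 0.05, with 2246 higher (6.26%) and 2992 lower (8.34%) at an unadjusted p under 0.05. Adjusted over bright probe sets only, limma called 191 probe sets, of which 68 were higher (0.335%) and 123 lower (0.607%). Of the probe sets that represent a bright gene 130 were called, 56 higher (0.516%) and 74 lower (0.681%), and all 130 were separated. Below, "called" means called by this test of bright probe sets, and all other values are given as descriptions.

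The balance between higher and lower genes depended on how the arrays were put on a common scale. With quantile normalization, 48.6% of the separated bright genes were higher. With the deposited scaling kept this was 54.1%, and with array medians made equal it was 17.5%, because that scaling moved the median change of all genes to -0.27. Changes are therefore to be read against the median of all genes, which was -0.01 on the log2 scale. Before normalization the median signals were 35.6 and 42.2 on the untreated arrays and 48.6 and 57.2 on the imatinib arrays. The ratio of 3-prime to 5-prime signal for beta-actin was 1.48 and 1.30 untreated and 1.74 and 1.55 with imatinib, and both of these measures move with the treatment. Their part in the results was not tested. After normalization the untreated arrays correlated at 0.989 across probe sets, the imatinib arrays at 0.985, and the 4 pairs between the groups at 0.977 to 0.982.

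Secreted cytokines were among the genes furthest below the untreated level. Of 25 measured interleukins, colony-stimulating factors and TNF family genes, 15 were bright, and 9 of these were lower in all 4 pairs and 3 higher. The median change of the 25 was -0.34, which became -0.08 without untreated array 1, -0.94 with an added constant of 1 and -0.16 with one of 64. Brightness is a mean over both groups, so a gene can pass through 1 group alone: for Il13 and Csf2 both imatinib arrays lay below the limit, and the bright members' median was -0.76. Il13, a cytokine of allergic inflammation made by mast cells and T cells, had normalized log2 levels of 8.24 and 8.09 in untreated cells and 5.10 and 4.42 with imatinib. Adding 16 to every signal puts the lowest possible log2 level at 4, and the imatinib arrays came near it, as did the vector cells, at 4.2 and 4.73. The change was -3.40 (SE 0.40), a 10.6-fold lower level on the log2(signal + 16) scale, with limma adjusted p = 0.033 over bright probe sets and 0.108 over all. Il4, which drives IgE production and mast cell growth, lay at 10.76 and 10.75 untreated and at 8.50 and 7.76 with imatinib, a 6.18-fold lower level (SE 0.34 on the log2 scale, limma adjusted p = 0.033 over bright probe sets). Here the imatinib arrays stayed above the vector arrays, at 5.77 and 5.40.

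Growth and inflammatory factors followed the same direction. Csf2, the gene of GM-CSF, which supports granulocytes and macrophages, lay at 8.82 and 7.78 untreated and at 5.74 and 5.18 with imatinib. Il6, a cytokine that acts through gp130 and STAT3, lay at 11.40 and 10.90 untreated and at 9.12 and 7.85 with imatinib. For both genes every imatinib array was below every untreated array, with changes of -2.84 and -2.66, and both were called (limma adjusted p = 0.045 and 0.0459 over bright probe sets). Osm, another ligand of the gp130 family, lay at 11.28 and 10.66 untreated and at 9.25 and 8.60 with imatinib (change -2.04, SE 0.31), and completed the 5 called members of the list. Lif varied more between arrays of a group, at 10.04 and 9.04 untreated against 7.73 and 5.99 with imatinib, and it was not called (change -2.68, SE 0.72). Il1b was 10.88 and 10.93 untreated and 8.11 and 7.13 with imatinib, but the vector arrays, at 9.04 and 5.54, widened the error to 1.07 and it was not called. The 3 higher members were Il15 (1.18), Csf1 (0.83) and Il18 (0.47), none of them called.

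Chemokines, which attract leukocytes, split in the same way. Of 18 bright chemokine and receptor genes, 8 were lower and 4 higher, with a median of -0.22 over 27 measured. That median became 0.01 with the deposited scaling kept, -0.40 without imatinib array 1 and -0.09 without imatinib array 2. Ccl24, an attractant of eosinophils, lay at 7.87 and 7.62 untreated and at 4.60 and 4.15 with imatinib, a 10.3-fold lower level that came near the floor. Both its imatinib arrays lay below the brightness limit, so it counts among the bright genes through the untreated arrays alone. Cxcl10, an interferon-induced attractant of T cells, lay at 9.66 and 8.12 untreated and at 6.20 and 5.68 with imatinib. Its vector levels of 8.45 and 8.36 put the imatinib arrays below all other arrays. Imatinib array 2 of Cxcl10 lay below the brightness limit too. The changes of Ccl4 and Ccl3 were -1.79 and -1.18, and of these Ccl4 was called, as were Ccl24 and Cxcl10. In the other direction Ccl2, an attractant of monocytes, was 7.86 and 8.27 untreated and 9.5 and 8.93 with imatinib, with a standard error of 0.90.

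**Figure D1:**
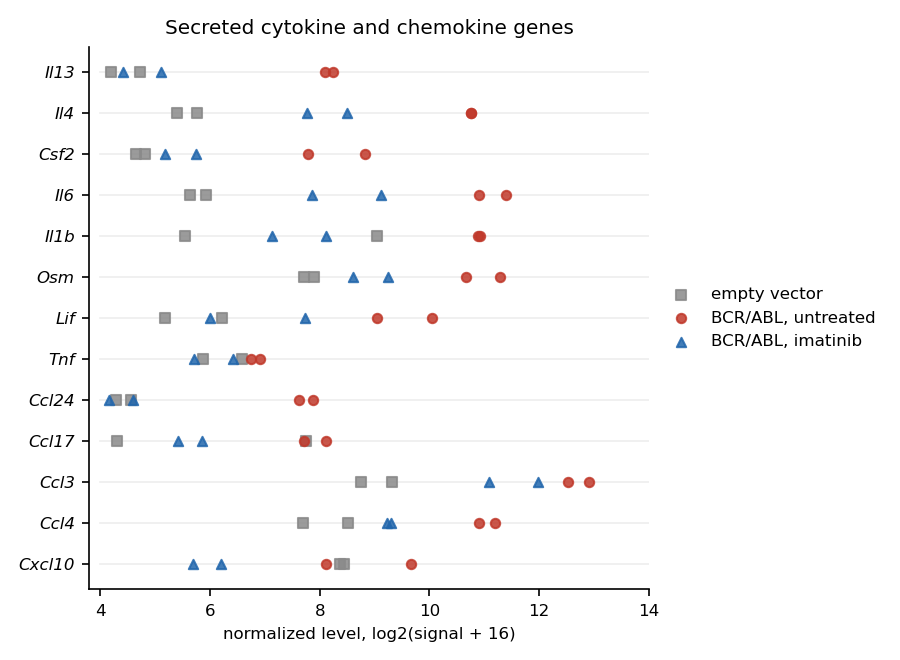
Normalized levels of 13 secreted cytokine and chemokine genes, picked among those lower with imatinib, on each of the 6 arrays, as log2(signal + 16), with grey squares for empty vector, red circles for untreated BCR/ABL and blue triangles for BCR/ABL with imatinib. All imatinib arrays lie left of the untreated arrays of the same gene; for Il13 they reach 5.10 and 4.42, near the vector arrays, while for Il4 they stay at 8.50 and 7.76.

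The STAT5 and ERK readouts did not move as whole groups, unlike the FoxO list described below. Of 18 bright STAT5 targets, 10 were lower (55.6%, against 31.4% of all bright genes). Another 4 were higher (22.2%, against 29.7%), and the median was -0.27 over 20. Cish, a feedback inhibitor of cytokine receptors, lay at 11.07 and 10.83 untreated and at 9.25 and 9.12 with imatinib, near the vector levels of 9.13 and 7.99 (change -1.77, SE 0.37, not called). Id1, which blocks differentiation by binding basic helix-loop-helix factors, lay at 10.55 and 10.56 untreated and at 9.12 and 8.53 with imatinib and was called (limma adjusted p = 0.0475 over bright probe sets). Bcl6, a repressor gene that STAT5 holds down, went the other way, from 9.24 and 9.32 to 10.72 and 10.93 (change 1.55, SE 0.23), and was called too. Other standard targets had arrays that overlapped or differed little: Socs2 was 12.34 and 12.11 untreated and 12.34 and 12.26 with imatinib, with mixed signs over its probe sets, and Pim1 had a change of 0.11. With array medians made equal, Pim1 stood at -0.22. Myc, at 11.30 and 11.21 untreated and 11.08 and 11.15 with imatinib, changed by -0.15.

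The ERK feedback list held a few large single changes. Of 17 bright members 4 were lower (23.5%) and 3 higher (17.6%), both below the background of 31.4% and 29.7%. The median of -0.12 became 0.08 without imatinib array 2. Phlda1, an immediate target of growth factor signalling, lay at 9.65 and 9.20 untreated and at 6.85 and 5.88 with imatinib, an 8.36-fold lower level and the called member of the list. Spry4, which dampens receptor tyrosine kinase signalling, lay at 7.21 and 7.05 untreated and at 5.83 and 4.90 with imatinib. Dusp6, the phosphatase that acts on ERK itself, was 11.45 and 11.42 against 11.40 and 11, a change of -0.24 (SE 0.19). Among immediate early factors, Egr1 was lower, from 11.93 and 11.60 to 10.38 and 9.86, and was called (limma adjusted p = 0.0353 over bright probe sets). Atf3, a stress-induced factor, lay at 7.95 and 7.66 untreated and at 5.61 and 4.97 with imatinib. For Spry4 and Atf3 both imatinib arrays lay below the brightness limit, so these genes passed it through the untreated arrays alone. Fos, by contrast, overlapped, at 9.70 and 10.75 untreated and 11.34 and 10.68 with imatinib. Of 16 bright immediate early factors 7 were lower (43.8%, against 31.4%) and 5 higher (31.2%, near the background of 29.7%). Their list's median of -0.24 became 0.06 without imatinib array 2.

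The genes that build ribosomes were lower in nearly every member. Ribosome biogenesis takes place in the nucleolus, where ribosomal RNA is transcribed, cut, modified and packed with protein. Of 49 measured genes of this process all 49 were bright, 47 were lower in all 4 pairs and 0 were higher. Their median level was 11.27 and 11.40 on the untreated arrays and 10.83 and 10.68 on the imatinib arrays, against 11.13 and 11.19 in vector cells. The median change was -0.56, with a median between -0.66 and -0.49 in the 4 separate pairs. The 2 genes whose arrays overlapped, Nol6 and Pes1, had changes of -0.38 and -0.24.

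Bysl, which is needed to mature the small ribosomal subunit, had the largest change of the list. It lay at 10.69 and 10.87 untreated and at 9.32 and 8.72 with imatinib (change -1.77, SE 0.22, limma adjusted p = 0.0353 over bright probe sets). Rrp9 belongs to the particle that cuts the ribosomal RNA precursor, and lay at 9.45 and 9.55 untreated and at 8.23 and 8.07 with imatinib. Bop1, which acts on the large subunit, lay at 10.42 and 10.61 untreated and at 9.34 and 9.21 with imatinib, below the vector arrays at 10.42 and 10.33. The nucleolar gene Lyar was 12.09 and 12.20 untreated and 11.05 and 10.99 with imatinib. These 4 were called, with Wdr75, Nhp2, Nop56 and Fbl as the other called members. Fbl, the fibrillarin that methylates ribosomal RNA, showed how small a called change could be: 12.35 and 12.42 untreated against 11.93 and 11.90 with imatinib, a 1.38-fold lower level.

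MYC binds the letters CACGTG, the E-box, and many ribosome biogenesis genes are known targets of it, so their start regions were searched on both strands. RefSeq start regions of 300 bases, 250 before the start and 50 after it, were matched to 43 of the 49 genes, and 12 of these (27.9%) held the E-box. The share was 12.1% over bright genes and 8.09% over all 27025 genes with such a region. It was not particular to this list: the lysosome and autophagy list, with 23 of 43 bright members higher, had 34.3% and the MYC network 36.4%, while mitochondrial ribosomal proteins, lower like the ribosome biogenesis genes, had 8.82%. A match describes the letters of the window and not a bound site. In 3 genes of the list the match lies before the start. Shown here as examples, 5′ to 3′ on the gene's strand with the E-box in capitals, are the stretches of Nop2 and Imp4, the 2 of these with a single match. Nop2 encodes a ribosomal RNA methyltransferase, and its stretch is chr6:125131798-125131853 of GRCm38.p6 on the plus strand. Imp4 encodes a protein of the particle that cuts the ribosomal RNA precursor, and its stretch is chr1:34439683-34439738 on the plus strand.
Nop2: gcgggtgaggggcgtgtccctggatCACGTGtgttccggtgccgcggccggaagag
Imp4: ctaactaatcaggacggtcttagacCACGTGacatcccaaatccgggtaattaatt
Nop2 lay at 10.73 and 11.02 untreated and at 10.09 and 10.02 with imatinib, and Imp4 at 11.27 and 11.40 untreated and at 10.56 and 10.68 with imatinib. Both genes were separated and neither was called, at changes of -0.82 and -0.71. Over all bright genes the E-box share was 13.4% for those lower in all 4 pairs and 12% for those higher.

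The ribosomal proteins themselves showed no such shift. Of 35 bright cytosolic ribosomal protein genes 6 were higher and 7 lower, the median change lay between -0.01 and 0.01 in the 4 pairs, with array medians of 13.42 and 13.48 untreated and 13.49 and 13.49 with imatinib. These are among the brightest probe sets on the array, and a compressed scale at the top of the range cannot be told apart from an equal level. Rpl14, the member with the largest change, was 11.39 and 11.61 untreated and 10.89 and 11.21 with imatinib. The proteins of the mitochondrial ribosome were different. Of 39 bright genes 36 were lower and 0 higher, with a median of -0.46 and array medians of 11.39 and 11.45 untreated and 11.10 and 11 with imatinib. Mrpl12, which also binds the mitochondrial RNA polymerase, lay at 12.32 and 12.29 untreated and at 11.52 and 11.43 with imatinib, and was called with Mrpl17.

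The enzymes and factors that feed the ribosome were lower as well. Of 19 aminoacyl tRNA synthetases, which charge tRNAs with amino acids, 18 were lower and 1 higher, with a median of -0.56. Tars, the threonyl enzyme, lay at 11.25 and 11.20 untreated and at 10.25 and 10.14 with imatinib, a 2.05-fold lower level, and was called with Rars. Qars was the exception, at 0.09, and stood at -0.29 with array medians made equal. Among 22 translation factors 13 were lower and 3 higher, with a median of -0.18. The subunits Eif2b3 and Eif2b1 of the exchange factor that recharges eIF2 were lower by 1.08 and 0.99 on the log2 scale, while the elongation factor gene Eef2 was 12.99 and 12.98 untreated and 13.02 and 13.07 with imatinib, or lower by 0.26 with array medians made equal.

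**Figure D2:**
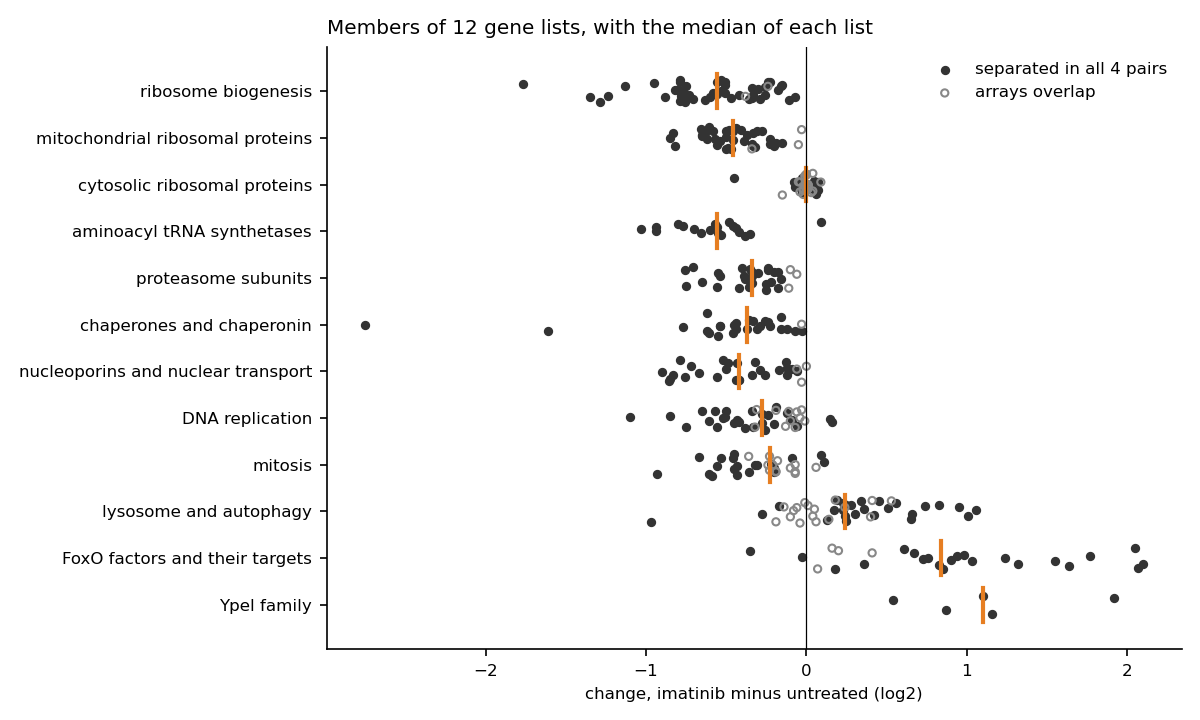
Change of each measured member of 12 gene lists, imatinib minus untreated on the log2 scale, with filled points for genes separated in all 4 array pairs, open points for genes whose arrays overlap and an orange bar at each list's median. Ribosome biogenesis has 47 of 49 members filled and left of 0 (median -0.56), cytosolic ribosomal proteins sit around 0, and the FoxO list lies mostly to the right (median 0.84); with array medians made equal the lysosome and autophagy median of 0.24 becomes -0.10.

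Polyamine synthesis genes were split. Of 10 bright members 5 were lower and 3 higher (30%, near the background of 29.7%), and the median of -0.31 became -0.16 without imatinib array 2. Srm, the spermidine synthase, lay at 12.23 and 12.37 untreated and at 11.04 and 11.07 with imatinib, a 2.37-fold lower level with a standard error of 0.09 (limma adjusted p = 0.0157 over bright probe sets). Mtap, which recycles the by-product of that reaction, was lower by 0.86 and was called. Sat1, the enzyme that starts polyamine breakdown, was higher, from 11.59 and 11.42 to 12.30 and 12.12. Odc1, the entry enzyme of the pathway, overlapped, at 12.01 and 12.23 untreated and 12.07 and 11.36 with imatinib.

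Of 16 bright genes of serine and one-carbon synthesis 13 were lower and 1 higher, with a median of -0.64 over 17 measured. Mthfd2, a mitochondrial folate enzyme, lay at 11.77 and 11.85 untreated and at 10.84 and 10.28 with imatinib, and was the called member. Atf4, the transcription factor that induces these enzymes, was lower by 0.41. The 1 higher member was Ddit3, a stress factor downstream of Atf4, at 8.95 and 8.79 untreated and 10.14 and 10.13 with imatinib. A second bright probe set of Ddit3 had a change of -0.05. Of 19 nucleotide synthesis genes 15 were lower and 2 higher, with a median of -0.46. Cad, which carries out the opening steps of pyrimidine synthesis, was lower by 0.90 and Ctps by 0.82, and none of the list was called.

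Transport and energy genes moved less evenly. The cystine importer gene Slc7a11 lay at 7.56 and 7.44 untreated and at 5.75 and 4.91 with imatinib (change -2.17, SE 0.48). Both its imatinib arrays lay below the brightness limit, which it passed through the untreated arrays alone. Slc7a5, an importer of large neutral amino acids, was lower by 0.84, yet the 16 amino acid transporters had a median of 0.01, with 7 lower and 2 higher, and that median was -0.20 without imatinib array 1. Of 23 glycolysis and pentose phosphate genes 12 were lower and 2 higher, with a median of -0.12, and the lactate exporter Slc16a3 lay at 9.84 and 9.91 untreated and at 9.22 and 8.22 with imatinib. Of 38 respiratory chain and ATP synthase genes 30 were lower and 1 higher, but the median was small, -0.18. Cycs, the cytochrome c gene, was the called member, at 12.73 and 12.80 untreated and 11.99 and 12.08 with imatinib.

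Genes of sterol synthesis were more often lower than higher. Of 24 bright sterol and fatty acid genes 14 were lower and 3 higher, with a median of -0.40, or -0.65 without imatinib array 1. Cyp51, the lanosterol demethylase, lay at 10.67 and 10.57 untreated and at 9.43 and 9.34 with imatinib, a 2.35-fold lower level. Fdps, which makes farnesyl diphosphate, lay at 10.94 and 10.94 untreated and at 9.62 and 10.00 with imatinib. These and Idi1 were called, and Mvd and Lss were lower by 1.58 and 1.42 without a call. Abca1, which exports cholesterol from the cell, went in the other direction, from 7.60 and 8.21 to 10.26 and 10.00, a 4.68-fold higher level that was called (limma adjusted p = 0.0402 over bright probe sets).

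Proteasome and chaperone genes were lower in nearly every member, and genes of the secretory pathway and of nuclear transport in most. Of 31 proteasome subunits 28 were lower and 0 higher, with a median of -0.34 and array medians of 12.31 and 12.37 untreated and 12.11 and 12.03 with imatinib. None was called. Psmc5, an ATPase of the regulatory particle, lay at 11.21 and 11.35 untreated and at 10.52 and 10.52 with imatinib. Of 26 bright chaperone genes 25 were lower and 0 higher, with a median of -0.37. The mitochondrial chaperonin pair Hspd1 and Hspe1 was called, at changes of -0.61 and -0.54. The inducible heat shock gene Hspa1b had the largest change, from 9.61 and 10.99 to 7.97 and 7.14, but its untreated arrays were far apart and its near copy Hspa1a may share its signal.

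Of 30 secretory pathway and endoplasmic reticulum genes 22 were lower and 3 higher, with a median of -0.25. Sdf2l1 and Creld2, both induced by stress of the endoplasmic reticulum, were lower by 1.14 and 1.10 and were called. Dnajb9, another such gene, was instead higher by 0.58. Of 29 nucleoporin and nuclear transport genes 26 were lower and 0 higher, with a median of -0.42. Ranbp1, which assists the Ran GTPase that drives transport, lay at 12.40 and 12.36 untreated and at 11.69 and 11.63 with imatinib, and was called.

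Cell cycle genes showed smaller shifts. Of 38 DNA replication genes 25 were lower and 2 higher, with a median of -0.28, which ranged from -0.45 to -0.12 over the 4 pairs and became -0.17 without imatinib array 2. Gins2, part of the replicative helicase, lay at 10.63 and 10.92 untreated and at 9.98 and 9.86 with imatinib. Of 34 mitosis genes 19 were lower and 2 higher, with a median of -0.23, which became -0.41 without imatinib array 1 and -0.35 without untreated array 1. Plk1, a mitotic kinase, lay at 9.77 and 9.82 untreated and at 9.03 and 8.70 with imatinib. Other standard proliferation genes overlapped, among them Mki67, at 12.28 and 12.51 untreated and 12.37 and 12.22 with imatinib, and Mcm2, at 11.10 and 11.38 against 11.26 and 10.59. No gene of these lists was called.

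The inhibitors of the cell cycle did not share a direction. Cdkn1b, a CDK inhibitor that FoxO factors induce, lay at 11.10 and 10.95 untreated and at 11.91 and 12.01 with imatinib, a 1.91-fold higher level that was called (limma adjusted p = 0.033 over bright probe sets). Cdkn2b, an inhibitor of CDK4 and CDK6, lay at 7.78 and 7.63 untreated and at 6.48 and 5.12 with imatinib, while Cdkn1a overlapped. The cyclin genes Ccne1 and Ccnd2 were lower by 1.06 and 0.27, and Rbl2, a repressor of the retinoblastoma family kept in resting cells, was higher by 0.76.

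The FoxO list stood at the other end. FoxO factors enter the nucleus when AKT is inactive and induce genes of cell cycle arrest, cell death and stress resistance. Of 25 bright members, 20 were higher in all 4 pairs and 1 was lower, and the median change over 26 measured was 0.84, with pair medians from 0.78 to 1.04. Array medians of the list were 9.99 and 9.39 untreated, 10.85 and 11 with imatinib and 10.10 and 9.99 in vector cells. The lower gene was Bnip3, at -0.35. Of the factors themselves, Foxo1 lay at 7.63 and 7.37 untreated and at 8.65 and 8.42 with imatinib, and Foxo3 was higher by 0.36, or -0.01 with array medians made equal.

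Pik3ip1 encodes an inhibitor of PI3K and had the largest change of the list. It lay at 10.29 and 9.92 untreated and at 12 and 12.40 with imatinib, a 4.27-fold higher level (SE 0.25 on the log2 scale, limma adjusted p = 0.033 over bright probe sets). Bcl2l11, the gene of the death-promoting protein BIM, lay at 9.98 and 9.46 untreated and at 11.65 and 11.07 with imatinib, and all 5 of its probe sets had that sign. Pink1, a kinase that marks damaged mitochondria, lay at 11.13 and 11.10 untreated and at 12.25 and 12.46 with imatinib. Txnip, which inhibits thioredoxin and glucose uptake, lay at 12.15 and 11.81 untreated and at 12.83 and 12.92 with imatinib. Together with Ccng2, Cdkn1b and Bcl6 these were the 7 called members. Tsc22d3, also induced by glucocorticoids, lay at 10.35 and 9.21 untreated and at 11.69 and 12 with imatinib, and Il7r, the receptor of interleukin 7, at 8.43 and 8.96 against 11.21 and 10.27. Both were separated, with changes of 2.07 and 2.05, and neither was called.

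The core letters that FoxO factors bind, TGTTTAC, were searched on both strands of the same start regions. They were found in 4 of 21 matched genes of the list (19%), in 3.13% of bright genes and in 4.05% of all genes. The core was not particular to the FoxO list: it was in 4 of 14 p53 targets (28.6%), a list with a median change of 0.04. It was also in 2 of 12 BCL2 family genes (16.7%). Those 2 are Bcl2l11, itself on the FoxO list, and Bbc3, also on the p53 list. The share was 4.36% for bright genes higher in all 4 pairs and 2.34% for those lower. Shown are the stretches of the 2 called members with a match before the start, with the core in capitals; both carry it on the opposite strand, where it reads GTAAACA. The Bcl2l11 stretch is chr2:128125788-128125842 and the Txnip stretch chr3:96557811-96557867, both on the plus strand of GRCm38.p6.
Bcl2l11: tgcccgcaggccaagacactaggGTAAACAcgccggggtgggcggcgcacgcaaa
Txnip: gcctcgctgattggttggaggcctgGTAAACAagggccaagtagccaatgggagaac
The Bcl2l11 match begins 227 bases before the start and the Txnip match 121 bases before it. With 4 matches, the share of the list rests on few genes.

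Several further groups were higher with imatinib. All 4 bright members of the Ypel family, small zinc-binding proteins of little known function, were higher, and the median of the 5 measured was 1.10. Ypel3, linked to growth arrest, lay at 8.36 and 8.43 untreated and at 10.18 and 10.44 with imatinib, a 3.78-fold higher level that was called, while the vector arrays lay between, at 9.31 and 9.46. Trp53inp1, induced by p53 and involved in autophagy, had the smallest p of the whole table, at 10.49 and 10.40 untreated and 12.17 and 12.45 with imatinib (limma adjusted p = 0.0135 over bright probe sets and 0.0815 over all). Other p53 targets did not follow it: of 18 bright genes 7 were higher and 3 lower, the median was 0.04, and Cdkn1a was 11.05 and 10.70 untreated against 10.93 and 9.70. That median became -0.09 without untreated array 2 and -0.13 without imatinib array 1. The death and survival genes were also split. Of 11 bright BCL2 family members 3 were higher (27.3%) and 4 lower (36.4%), near the background of 29.7% and 31.4%. Besides Bcl2l11, Mcl1 was higher by 0.31, or -0.07 with array medians made equal, and Bcl2l1, which encodes the survival protein BCL-XL, was lower by 0.49, with 1 probe set of each of opposite sign.

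The MAX-binding repressors that oppose MYC, Mxd1, Mxd4, Mxi1 and Mnt, were higher in all 4 pairs, while Myc itself differed little. Mxd4 lay at 9.42 and 9.25 untreated and at 10.73 and 10.92 with imatinib, a 2.81-fold higher level. Its dimmest probe set, which was not bright, had a change of -0.16. Mxi1, a second such repressor, was 11.39 and 11.24 untreated and 11.86 and 11.90 with imatinib. Of 12 bright genes of the network 6 were higher and 2 lower, with a median of 0.31, which became -0.05 with array medians made equal and stayed above the median of all genes at that scaling.

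Lysosome and autophagy genes tended to be higher. Of 43 bright members 23 were higher and 3 lower, with a median of 0.24 that became -0.10 with array medians made equal, where all genes stood at -0.27. Ulk1, the kinase that starts an autophagosome, lay at 8.31 and 8.34 untreated and at 9.52 and 9.25 with imatinib. Atg14 directs the lipid kinase that follows it and lay at 8.63 and 8.57 untreated and at 9.36 and 9.73 with imatinib. Mitf, a factor that induces lysosome and mast cell genes, lay at 9.85 and 10.05 untreated and at 10.98 and 10.95 with imatinib. Each of these was close to 2-fold higher, and none was called. The list's own master regulator, Tfeb, overlapped, at 5.96 and 6.28 untreated and 6.42 and 5.73 with imatinib.

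**Figure D3:**
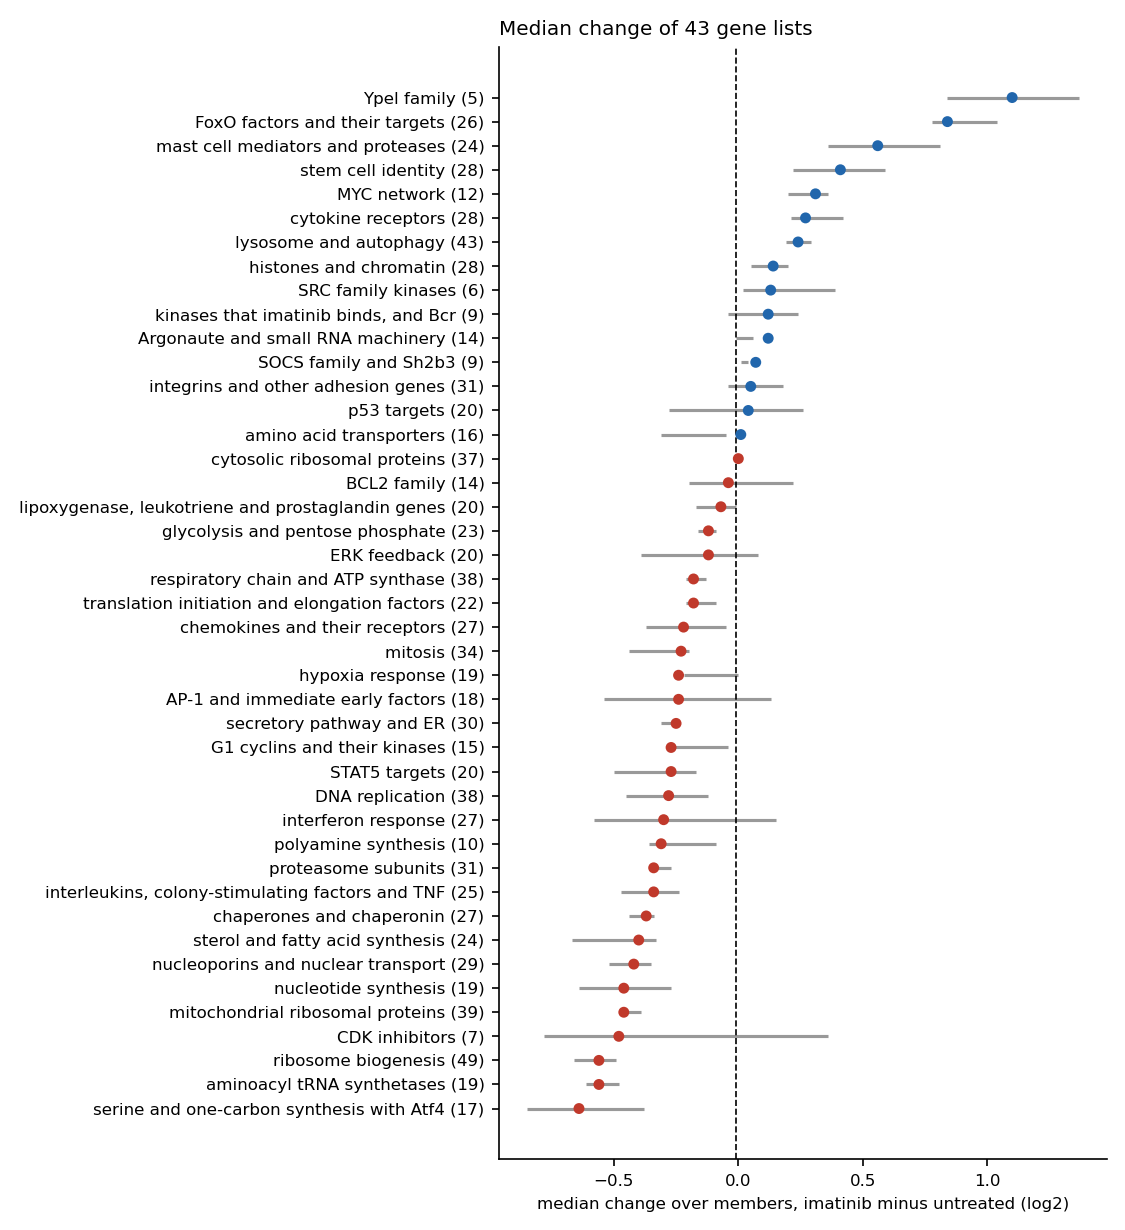
Median change of 43 gene lists, imatinib minus untreated on the log2 scale, with the number of measured members in brackets and grey bars from the lowest to the highest of the medians taken in each of the 4 array pairs. The Ypel (1.10) and FoxO (0.84) lists lie highest and the serine and one-carbon list (-0.64) lies lowest in this setting, the dashed line marks all genes at -0.01, and with array medians made equal that line moves to -0.27 and the lists with medians from 0.01 to 0.31 become negative. A point may lie outside its bar because the median of averaged changes need not be an average of pair medians.

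Surface receptors and stem cell genes were mostly on the higher side. Of 25 bright cytokine receptor genes 12 were higher and 1 lower, with a median of 0.27, or -0.05 with array medians made equal. Kit, the receptor used in the sort and itself a target of imatinib, lay at 10.37 and 10.13 untreated and at 11.38 and 11.39 with imatinib, a 2.20-fold higher level that was called, as was Tgfbr2 at 1.00 (a dimmer probe set of Tgfbr2 stood at -0.06). Flt3, a receptor of early progenitors, lay at 10.51 and 9.37 untreated and at 11.01 and 11.57 with imatinib. The lower bright member was Il2ra, a STAT5 target that encodes the alpha chain of the interleukin 2 receptor, at 10.05 and 8.42 untreated and 7.97 and 7.27 with imatinib. Of 26 bright stem cell identity genes 16 were higher and 3 lower, with a median of 0.41. With array medians made equal 7 were higher and 5 lower, with a median of 0.12, where all genes stood at -0.27. Vwf and Tek, genes of stem cells and endothelium, were higher by 1.28 and 1.19, and the vector arrays of Tek, at 5.44 and 8.15, left it with a standard error of 0.91. The 3 lower genes were Egr1, Thy1 and Cd48, and Egr1 was the called member.

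Mast cell genes were mostly higher, although the mast cell cytokines above were lower. Of 23 bright genes of mast cell mediators and proteases 16 were higher and 4 lower, with a median of 0.56. Btk was among the 4 lower genes, at -0.13. Tpsab1, a tryptase, lay at 6.88 and 7.20 untreated and at 10.45 and 9.27 with imatinib, a 7.06-fold higher level and the called member, while vector cells lay at the floor. Cpa3, the mast cell carboxypeptidase, lay at 12.41 and 12.41 untreated and at 13.18 and 13.05 with imatinib, and the chymase gene Cma1 at 12.19 and 12.26 against 13.40 and 13.22. Both were separated and neither was called. The tryptases and the other proteases have near copies, so their separate levels are uncertain. Hdc, which makes histamine, overlapped, at 12.83 and 12.68 untreated and 13.08 and 12.59 with imatinib.

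Marker genes of blood cell types were summed per array, as a description beside these changes. The summed signal of 11 mast cell and basophil markers was 45706 and 43977 untreated and 71097 and 59107 with imatinib. For 10 megakaryocyte markers it was 4162 and 3545 untreated and 7193 and 6946 with imatinib, and for 6 eosinophil markers 5315 and 7842 against 11709 and 9846. In each of these sets the imatinib arrays were above the untreated arrays. The mast cell sum is not separate from the mediator list above, which shares most of its markers, among them Tpsab1, Tpsb2, Cpa3, Cma1 and Hdc. The brightest genes also weigh most in a sum. The other sets overlapped or stood close: 12 neutrophil granule markers summed to 82368 and 91290 untreated and to 91697 and 91751 with imatinib, and 15 monocyte, macrophage and dendritic cell markers to 7652 and 13073 against 9911 and 7041. The sums of 14 B cell markers also overlapped, at 3982 and 4992 against 2375 and 7483, but 11 of the 14 had a negative change, with a median of -0.67 that was -0.31 without untreated array 2, and of 7 bright members 3 were lower and 0 higher. Ebf1, a factor that commits cells to the B lineage, lay at 6.85 and 8.05 untreated, 4.76 and 5.29 with imatinib and 12.04 and 9.27 in vector cells. Both its imatinib arrays lay below the brightness limit, so it counted as bright through the untreated arrays alone. In sorted bulk samples fewer cells of a type and less RNA per cell cannot be told apart, and the part of cell makeup in the results was not tested.

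Of the genes behind the sorting gate Kit was bright, while Ly6a, which encodes Sca-1, had no probe set of 1 symbol here. Other surface genes of stem and progenitor cells that were not sorted on, Cd34, Flt3, Slamf1, Cd48, Procr and Ly6e, were bright too. Of the markers of other lineages, 9 of 11 erythroid, 7 of 14 B cell and 4 of 11 T and NK cell genes were bright, beside 10862 of all 18193 genes. A bright gene only has a signal above about 45.7, which by itself does not show a lineage. Among the dim members of these lists were some defining genes of mature cells, with Cd3e between 4.42 and 5.34, Pax5 between 4.06 and 4.09 and Hba-a1 between 4.03 and 4.07. Other members of the same lists were far above the limit. Means over the 4 arrays were 12.75 for Car2 and 11.4 for Car1 (erythroid). They were 10.76 for Dntt and 9.75 for Cd79b (B cell), and 7.92 for Cd247 (T and NK cell). Neutrophil granule genes were strong, with array medians of 12.66 and 12.79 untreated and 12.88 and 12.84 with imatinib over 12 markers. Among them Mpo lay between 13.19 and 13.38 with overlapping groups, and Camp had a mean of 12.87 over the 4 arrays. The fusion transcript was not measured as such. Mouse Abl1 was 8.95 and 8.84 untreated and 9.47 and 9.19 with imatinib, with the opposite sign in its other 2 probe sets, and Bcr overlapped.

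**Figure D4:**
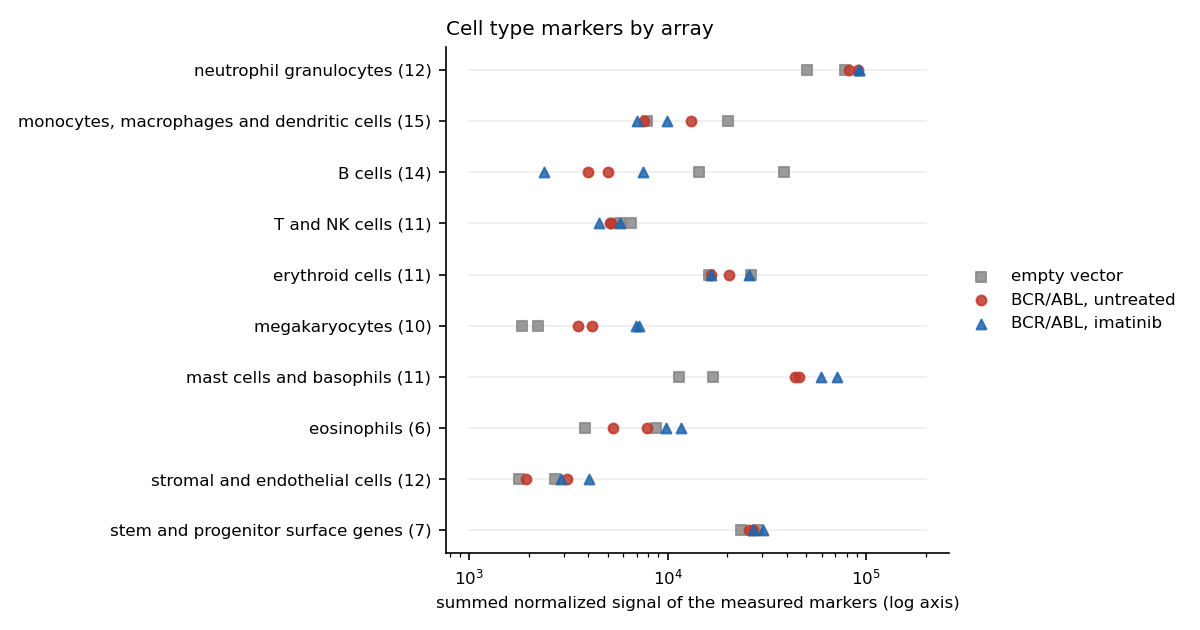
Summed normalized signal, on a log axis, of the measured genes of 10 marker lists on each of the 6 arrays, with the number of markers in brackets. The imatinib arrays lie right of the untreated arrays for mast cells and basophils (71097 and 59107 against 45706 and 43977) and megakaryocytes, and overlap or lie close for neutrophil granulocytes and, in their sum, for B cells.

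Single genes were then ranked by gap, the smallest of the 4 pair differences, which favours genes whose arrays agree. The 20 genes highest in gap among those higher with imatinib had gaps of 1.5 to 2.49, and 10 of them were called. Fn3k, a kinase that repairs sugar-damaged proteins, led them, at 4.72 and 4.72 untreated and 7.21 and 8.08 with imatinib. Its untreated level was near the floor, and it was not called. Both untreated arrays of Fn3k, Chst1, Eno2 and 5031434O11Rik lay below the brightness limit, so these genes passed it through the imatinib arrays alone. Slc15a2, a transporter of small peptides, lay at 8.93 and 8.74 untreated and at 11.08 and 11.62 with imatinib, a 5.74-fold higher level (limma adjusted p = 0.0225 over bright probe sets), with the same sign in all 3 of its probe sets. Ago4, a member of the Argonaute family that carries small RNAs, lay at 8.07 and 8.05 untreated and at 9.80 and 9.97 with imatinib. Its relatives did not share this, Ago1 being higher by 0.51, Ago3 lower by 0.23 and Ago2 overlapping at 0.14; with the deposited scaling kept, Ago3 stood at 0.00. Chst1, Neurl3, Poln, Eno2, Plscr4 and Sult1a1 were further members, with changes from 1.89 for Poln to 2.92 for Chst1. Rec114, second by gap, rested on 1 of its 2 probe sets, the dimmer of which had a change of -0.39.

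The 20 genes lower with imatinib had wider gaps, of 2.02 to 3.22, and 15 were called. Brightness is a mean over both groups. For Hal, Ccl24, Il13, Ptprg, Akr1c19, Tnfsf11, Atf3 and Csf2 both imatinib arrays lay below its limit. These genes thus passed it through the untreated arrays alone. Imatinib array 2 of Hao1 lay below the limit too. Hao1, a peroxisomal oxidase, came at the top: 9.65 and 9.54 untreated against 6.32 and 4.74 with imatinib, a 16.7-fold lower level. Nt5e, which encodes the enzyme CD73 that makes adenosine outside the cell, lay at 10.51 and 10.61 untreated and at 7.35 and 6 with imatinib, a 14.7-fold lower level shared in sign by all 3 of its probe sets. Hal, the enzyme that opens histidine breakdown, lay at 9.18 and 8.67 untreated and at 5.58 and 5.18 with imatinib. Vector cells lay at 5.18 and 5.07 for Hao1, at 5.62 and 6 for Nt5e and at 5.16 and 4.18 for Hal, far below the untreated arrays of each gene. Ptprg, a receptor tyrosine phosphatase, and Tgm1, a transglutaminase, were called as well, at changes of -3.41 and -2.92. So was Tnfsf11, the cytokine RANKL that drives osteoclasts, at 8.47 and 7.63 untreated and 5.52 and 5.32 with imatinib.

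Among these 20, Nrp1, Parm1 and Tnfsf11 lay below the vector arrays as well, which for Tnfsf11 were at 6.97 and 6.51. Nrp1, a co-receptor of semaphorins and VEGF, lay at 11.12 and 11.36 untreated, 8.75 and 8.98 with imatinib and 10.09 and 10.11 in vector cells, and its 4 probe sets shared the sign (limma adjusted p = 0.0157 over bright probe sets). Parm1, a membrane mucin, lay at 9.46 and 9.32 untreated, 6.99 and 6.88 with imatinib and 9.40 and 9.22 in vector cells. Untreated and vector cells thus overlapped for Parm1, and the imatinib arrays alone stood apart. Asb2, Lipg and Rhoj were separated but not called, with standard errors of 0.842 to 0.925. The vector arrays of each were far apart, at 8.28 and 5.37 for Asb2.

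**Figure D5:**
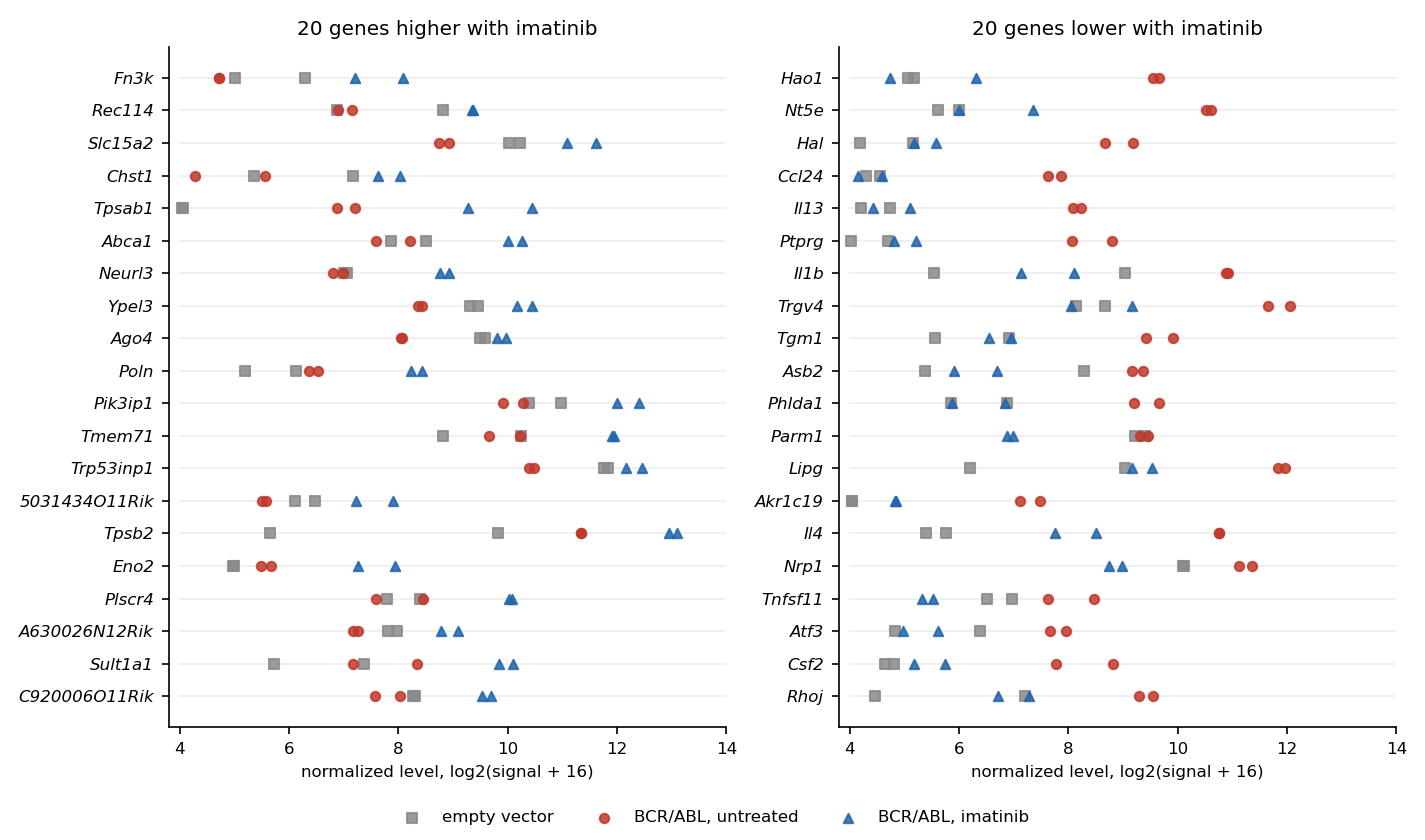
Normalized levels of the 20 higher and 20 lower genes with the largest gap on each of the 6 arrays, as log2(signal + 16), with grey squares for empty vector, red circles for untreated BCR/ABL and blue triangles for BCR/ABL with imatinib. All 20 genes on the left have both imatinib arrays above the 4 other arrays, while on the right 3 of 20 have them below all others.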

How the data were processed

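Signal intensity values of 6 Affymetrix mouse arrays were analysed as the authors deposited them, made with Affymetrix Expression Console and MAS5 per the submitters' processing notes. The design text names a whole-transcript array, whereas the probe sets are those of a 3-prime array, and no source used here gives versions. Each array's mean without the outer 2% at either end was 500. Of 45101 probe sets, 64 controls were left out. Values were taken as log2(signal + 16), which has a floor of 4, and quantile-normalized over the 6 arrays.

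Probe sets with a gene name (35877) were fitted with limma 3.58.1 in R 4.3.3 (lmFit, then eBayes with a trend) on 3 groups of 2 arrays, with 3 residual degrees of freedom, and p-values were adjusted by Benjamini and Hochberg. The threshold was 0.05. Of the named probe sets 34945 carried 1 symbol and 932 several, and no gene was named from the latter. The array number limits the precision. The fit was tested on simulated data.

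Named are the 20 genes per direction with the largest gap, then from each of 53 lists up to 4 separated bright members per direction by gap, called members, and members of widely known role. The members and lists were chosen with earlier results of these data known. Alternatives covered the added constant, the scaling, the brightness limit, the prior, the replicate number as a block and each array left out. Promoter sequences are from RefSeq on GRCm38.p6. The replicate numbers were not taken to pair the arrays.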

Additional observations from a re-analysis of the deposited data

How the results depend on the processing

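The limma count of 0 probe sets became 3 with an added constant of 1, 1200 with array medians made equal and 191 when only bright probe sets were tested. Bright probe sets higher in all 4 pairs numbered 2310 with array medians made equal, 3182 with brightness at the 75th percentile and 8084 with no brightness filter, against 5359. Those lower numbered 10058 and 3662 under the former 2 settings, against 6493. Leaving out each array in turn gave 0 limma calls throughout, 6964 to 7898 higher and 7979 to 9129 lower probe sets, where fewer pairs have to agree. A fit with the replicate number as a block called 0. Deviations of same-numbered arrays correlated at 0.146, -0.08 and 0.16 over the 3 pairs of groups. With 2 arrays per group these values cannot decide whether the numbers pair the arrays, and the labels do not say.

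With array medians made equal the changes of Ago2 (-0.24), Bcr (-0.17), Cd34 (-0.17), Eef2 (-0.26), Foxo3 (-0.01), Hdc (-0.29), Mcl1 (-0.07), Mpo (-0.27), Pim1 (-0.22), Qars (-0.29) and Socs2 (-0.30) turned negative, by the construction of that scaling, which shifts all genes to -0.27. With the deposited scaling kept Ago3 stood at 0.00, and Ly6e (0.03), Pax5 (0.01) and Tfeb (0.28) turned positive. Genes whose arrays overlapped changed sign when 1 array was left out: Bcr ranged from -0.11 to 0.49, Cd3e from -0.01 to 0.72, Cdkn1a from -1.17 to 0.05, Hdc from -0.16 to 0.33, Ly6e from -0.02 to 0.00, Mcm2 from -0.66 to 0.02, Mki67 from -0.22 to 0.02, Mpo from -0.05 to 0.14, Pax5 from -0.02 to 0.01, Socs2 from -0.05 to 0.19 and Tfeb from -0.39 to 0.30. With 2 arrays per group, and signals near the floor for part of the genes, fold changes of dim genes depend on the added constant.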

Other observations

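Imatinib arrays also stood outside the range of both other groups for part of the genes. Both imatinib arrays lay above all 4 other arrays for 1720 of 10862 bright genes (15.8%), 36 of them by more than 1 log2 unit. They lay below all 4 for 1834 (16.9%), 11 of them by more than 1. Bcat1, which starts the breakdown of branched-chain amino acids, lay at 10.79 and 11.30 untreated, 8.77 and 9.09 with imatinib and 11.39 and 10.91 in vector cells. Fubp1, which binds single-stranded DNA upstream of Myc, lay at 11.49 and 11.42 untreated, 10.34 and 9.72 with imatinib and 11.58 and 11.37 in vector cells. On the higher side Tmem71, a membrane protein, lay at 10.22 and 9.66 untreated, 11.94 and 11.91 with imatinib and 8.81 and 10.25 in vector cells.

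Interferon response genes were lower in 8 of 26 bright members (30.8%, near the background of 31.4%) and higher in 2 (7.69%, against 29.7%). Their median of -0.30 ranged from -0.58 to 0.15 over the 4 pairs. It became -0.05 without imatinib array 1 and -0.11 without untreated array 1. Histone and chromatin genes were higher in 14 and lower in 8 of 28, with a median of 0.14, or -0.21 with array medians made equal, 0.24 without imatinib array 1 and 0.06 without imatinib array 2. Of 341 separated bright genes of the lists and ranking with more than 1 bright probe set, 278 (81.5%) had the same sign in all of them.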
